A study of Danio rerio with 6 samples.

Results

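The genes star, cyp17a1 and cyp11c1 code for the steroid-making steps that lead to androgens. They were followed in whole juvenile zebrafish exposed to exemestane (EM), a steroidal drug that blocks aromatase. The 3 genes were chosen by their Ensembl identifiers, ENSDARG00000006137 for star, ENSDARG00000033566 for cyp17a1 and ENSDARG00000042014 for cyp11c1, out of the 32520 genes in the count table. The EM-juveniles were AB strain fish raised from fertilization for 32 days in water with EM at 10 µg/L in the solvent dimethyl sulfoxide (DMSO). The labels of the EM libraries do not give their DMSO concentration. The control juveniles were AB strain fish raised for the same 32 days with DMSO at 10 µL/L and no EM. Each group had 3 libraries, and each library pooled the whole bodies of 25 fish from 1 tank, so the sexes were not told apart and no tissue was separated. Every direction given here rests on the group names in the sample titles and count table. The text of the study uses the group names as the titles do, while the headings of a supplementary gene list carry them the other way round.

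Steroid synthesis starts when Star carries cholesterol to the inner mitochondrial membrane, where a side-chain cleavage enzyme such as Cyp11a1 cuts its side chain. Cyp17a1 carries the hydroxylase and lyase steps that give the precursors of androgens, and aromatase then turns androgens into estrogens. Cyp11c1 hydroxylates the steroid ring on the way to 11-ketotestosterone, the main androgen of male fish, and also on the way to cortisol. In zebrafish these genes work in the steroid-making cells of the gonads and in the interrenal, the counterpart of the adrenal cortex. In whole bodies a lower or higher read count cannot tell fewer or more such cells from less or more RNA per cell.

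The total count per library ran from 3169530 to 7804654. Control replicate 2 stood apart, with the fewest reads and 39.0% of them in its 100 most abundant genes, against 21.3% to 25.1% in the other libraries. It held the single highest normalised read count in 32.7% of the tested genes and the single lowest in 40.7%. Markers of muscle (ckma), liver (fabp10a), pancreas (prss1), skin (krt4) and glia (gfap) had normalised read counts of at least 198 in every library, as whole bodies should. DESeq2 called 0 of these 5, against 1.08% of all tested genes. The 5 were chosen after their values had been seen, so this count is no test of equal tissue composition. The levels were not all alike. In every EM library fabp10a was lower (2088 to 2450 against 2489 to 5216) and krt4 higher (9457 to 10260 against 6826 to 7956). Such patterns were held by 5.6% and 5.7% of all tested genes. As CPM (reads over the library total) fabp10a overlapped, while krt4 was still higher in every EM library, as were 9.52% of all tested genes. The level of prss1 ran from 577 to 8708. All 3 androgen synthesis genes were rare at this depth, with 1 to 90 reads per gene and library. Values below are normalised read counts, which are reads divided by the size factor of the library, unless raw reads are named, and the 3 values of a group follow the order of its replicates 1, 2 and 3. Levels are compared between libraries and not between genes, since no gene lengths were used. Whether reads of near-identical gene copies were shared was not examined.

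Expression of star was higher on average in EM-juveniles, but the groups overlapped and the difference did not pass the test. The normalised read count of star was 16.9, 14.9 and 37.0 in the controls, from 21, 6 and 57 reads. It was 24.0, 66.6 and 101 in the EM libraries, from 41, 60 and 90 reads. EM replicates 2 and 3 lay above all other libraries, while EM replicate 1 lay below control replicate 3. In order from the lowest, control replicates 2 and 1 were followed by EM replicate 1, control replicate 3, and then EM replicates 2 and 3. As CPM (reads over the library total), control replicates 2 and 1 were at 1.89 and 3.49, with 95% Wilson intervals of 0.868 to 4.13 and 2.28 to 5.33 that overlapped. Those of EM replicate 1 (3.87 to 7.13) and control replicate 3 (6.01 to 10.1) overlapped too, and so did those of EM replicate 2 (11.2 to 18.5) and EM replicate 3 (18.0 to 27.3). These intervals cover counting error only. EM replicates 2 and 3 were also above every other library in 9.61% of all tested genes.

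The group means of star were 63.8 ± 38.4 in EM-juveniles and 22.9 ± 12.2 in control juveniles (SD, n = 3). The DESeq2 log2 fold change was 1.43 ± 0.69 (SE), with a 95% interval of 0.08 to 2.79. The adjusted p-value was 0.651 in DESeq2, from an unadjusted p-value of 0.0383, and 0.916 in the quasi-likelihood test of edgeR. The difference in mean log2 value was 1.33 (exact permutation test, two-sided, p = 0.2, adjusted over the 3 genes p = 0.2, where 0.1 is the smallest p-value that 3 libraries against 3 can give). The log2 fold change ranged from 0.94, without EM replicate 3, to 1.98, without control replicate 3.

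Expression of cyp17a1 was lower in every EM library than in every control library. Its normalised read count was 15.3, 7.43 and 16.9 in the controls, from 19, 3 and 26 reads. It was 2.34, 3.33 and 2.24 in the EM libraries, from 4, 3 and 2 reads. Control replicate 2 lay nearest to the EM libraries, and its position rests on 3 reads. As CPM it was at 0.947 (95% Wilson interval 0.322 to 2.78), against 0.493 to 0.718 in the EM libraries, so the groups were still apart but its interval covered all 3 of them. The share of all tested genes with every EM library below every control library was 5.6%, or 3.13% as CPM.

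The group means of cyp17a1 were 13.2 ± 5.06 for the controls and 2.64 ± 0.602 for the EM-juveniles (SD, n = 3), and 48 reads in the controls stood against 9 reads in the EM libraries. The log2 fold change was -2.40 ± 0.86 (SE), with a 95% interval of -4.09 to -0.71. The adjusted p-value was 0.261 in DESeq2, from an unadjusted p-value of 0.00534, so the difference did not pass the test over all genes. The expression filter of edgeR removed cyp17a1 with all 6 libraries. Without control replicate 2 the log2 fold change was -2.62 in DESeq2 and -2.59 in edgeR, with adjusted p-values of 0.153 and 0.154. The difference in mean log2 value was -1.90 (exact permutation test, two-sided, p = 0.1, the smallest possible, adjusted over the 3 genes p = 0.2). It was -1.21 with a pseudocount of 5 in place of 1 and -1.08 with CPM, both at the same p-value of the exact test. A pseudocount of 1 was also added to CPM and is large beside values of 0.493 to 3.55. The smaller difference with CPM therefore does not show an effect of the scaling alone.

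Expression of cyp11c1 was low in 5 libraries and high in control replicate 2. Its normalised read count was 4.02, 24.8 and 5.19 in the controls, from 5, 10 and 8 reads. It was 4.10, 1.11 and 2.24 in the EM libraries, from 7, 1 and 2 reads. EM replicate 1 lay between control replicates 1 and 3, so the groups overlapped. As CPM, control replicate 2 had 3.16 (95% Wilson interval 1.71 to 5.81), and the intervals of control replicates 1 and 3 ran from 0.355 to 1.94 and from 0.553 to 2.16.

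The group means of cyp11c1 were 11.3 ± 11.7 for the controls and 2.48 ± 1.51 for the EM-juveniles (SD, n = 3). The log2 fold change was -2.01 ± 1.11 (SE), with a 95% interval of -4.19 to 0.18 and a DESeq2 adjusted p-value of 0.777. The edgeR filter removed this gene. Without control replicate 2 the log2 fold change was -0.82, and without EM replicate 1 it was -2.66. The difference in mean log2 value was -1.51 (exact permutation test, two-sided, p = 0.2, adjusted over the 3 genes p = 0.2). It was -0.92 with a pseudocount of 5 and -0.73 with CPM, both at the same p-value of the exact test. Here too the pseudocount of 1 is large beside CPM values of 0.239 to 3.16, so the scaling alone was not shown to shrink the difference.

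**Figure D1:**
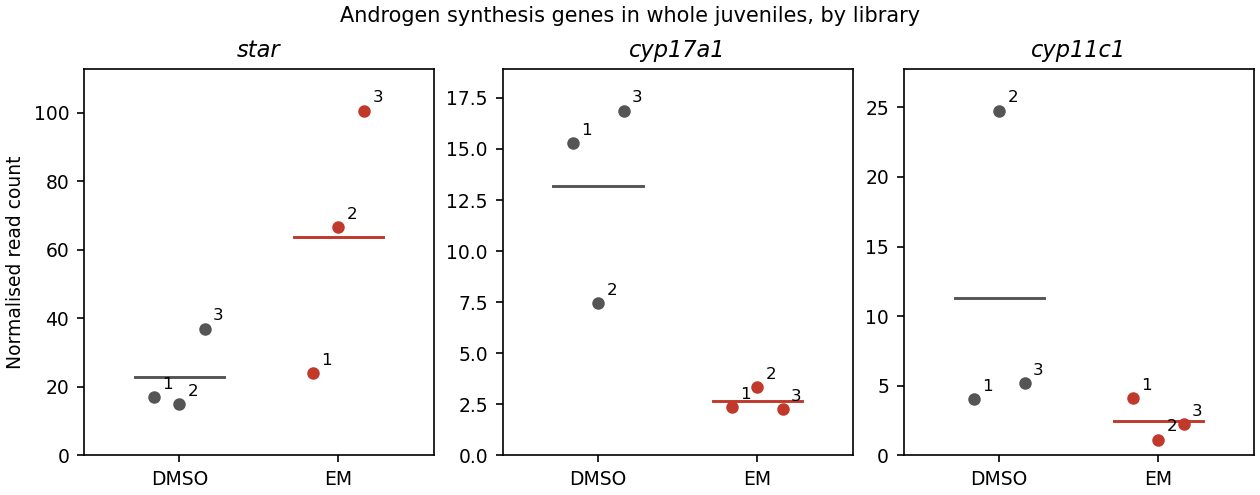
Normalised read counts (vertical axes, reads divided by the size factor, each gene on its own scale) of star, cyp17a1 and cyp11c1 in the 3 DMSO and 3 EM libraries. Points are libraries with their replicate numbers and lines are group means; star overlaps between the groups, cyp17a1 does not (EM libraries from 2.24 to 3.33, controls from 7.43 to 16.9), and the control mean of cyp11c1 is raised by replicate 2 at 24.8.

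DESeq2 called 0 of the 3 genes in either direction, and it gave all 3 an adjusted p-value. Over all 23999 genes with an adjusted p-value, 0.421% were called higher and 0.663% lower in EM-juveniles. The edgeR test called 0 genes in the whole table, with 759 of 19264 at an unadjusted p-value under 0.05, and DESeq2 had 1673 at that level. With 3 libraries per group at this spread, 0 calls in edgeR do not show that no gene changed. The DESeq2 calls, in turn, may hold more false ones than the threshold states. Every EM library lay above every control library in 5.7% of the genes tested by DESeq2, or 9.52% as CPM, and 0 of the 3 genes did so.

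Ratios of raw reads within a library do not depend on how libraries are scaled, and 2 were computed after the counts had been seen, as descriptions without a test. Of the reads of star and cyp17a1 together, star took 52.5%, 66.7% and 68.7% in the controls. It took 91.1%, 95.2% and 97.8% in the EM libraries. The groups did not overlap, although the 95% Wilson interval of control replicate 2, from 9 reads, reached 87.9% and that of EM replicate 1 began at 79.3%. In EM replicate 1, where star itself was within the control range, the share rests on 41 reads of star and 4 of cyp17a1. Both ratios hold cyp17a1, whose groups were already known to be apart, so neither is separate evidence. How often other pairs of genes part the groups in this way was not computed.

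The second ratio set cyp17a1 against its paralog cyp17a2, whose product in fish has the hydroxylase activity but little of the lyase activity. Reads of cyp17a2 (ENSDARG00000053966) numbered 1, 0 and 7 in the controls and 5, 4 and 4 in the EM libraries. Of the reads of both paralogs, cyp17a1 took 95%, 100% and 78.8% in the controls. It took 44.4%, 42.9% and 33.3% in the EM libraries. The groups did not overlap in these shares, but the intervals are wide, with 3 reads in control replicate 2 (43.9% to 100%) and 6 in EM replicate 3 (9.68% to 70.0%). The DESeq2 log2 fold change of cyp17a2 was 0.90 ± 1.34 (SE), with an adjusted p-value of 1.

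**Figure D2:**
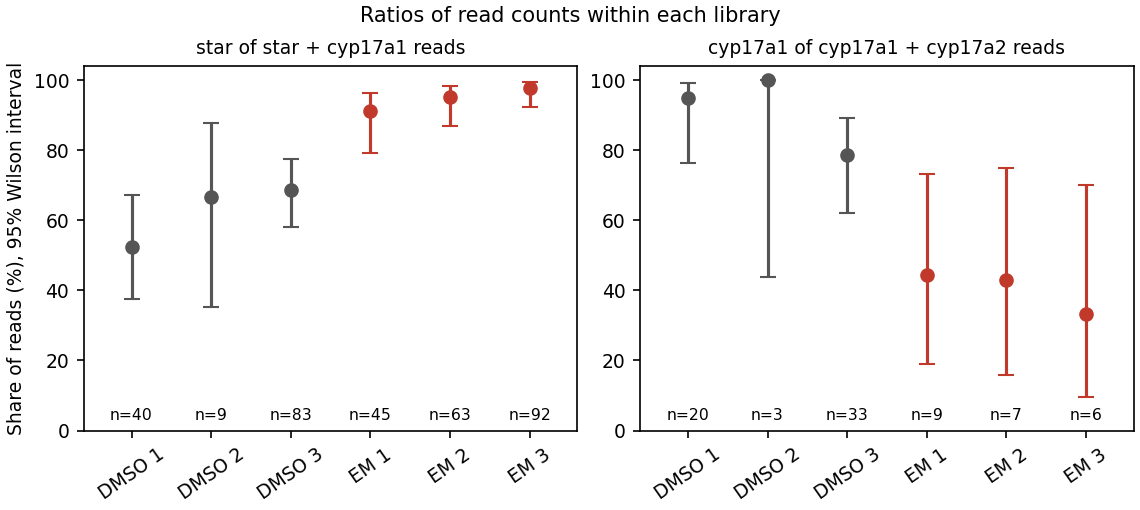
Share of reads in percent (vertical axes) within each library, for star among star and cyp17a1 reads and for cyp17a1 among cyp17a1 and cyp17a2 reads. Points are single libraries, bars are 95% Wilson intervals and n is the number of reads; star takes 91.1% or more in the EM libraries and 68.7% or less in the controls, and cyp17a1 takes 44.4% or less of the paralog reads in the EM libraries and 78.8% or more in the controls.

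The rest of the steroid pathway was described with a list of 17 genes, of which 14 received an adjusted p-value. DESeq2 called 1 higher and 1 lower in EM-juveniles, against 0.421% and 0.663% of all tested genes, and edgeR, which tested 11, called 0. The median log2 fold change was 0.04 for the 14 genes and 0.001 for all genes tested. Both called genes were also on the study's own list of changed genes in these libraries, so they are not independent evidence.

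Expression of cyp11a1, which codes for a side-chain cleavage enzyme acting just downstream of Star, was lower in EM-juveniles. No other gene for this step was in the lists, so the values describe cyp11a1 and not the step as a whole. Its reads numbered 29, 1 and 25 in the controls and 0 in all 3 EM libraries. Control replicate 2 exceeded the EM libraries by that single read. The control mean was 14.0 ± 10.6 (SD, n = 3), which is 4.98 times a floor of 3 reads per EM library. Control replicate 2, with 1 read, was itself under 3 reads. The DESeq2 adjusted p-value of cyp11a1 was 0.0124. The adjusted p-value was 0.421 and 0.131 without control replicates 1 and 3, 0.0955 and 0.0914 without EM replicates 2 and 3, and 0.14 with the replicate number as a block. In DESeq2 it was 0.000593 without control replicate 2 and 0.0447 without EM replicate 1. The edgeR filter removed this gene with all 6 libraries.

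The sulfotransferase gene sult2st3, whose family adds sulfate to steroids, rose in EM-juveniles. Its normalised read count was 113, 66.9 and 85.7 in the controls and 1959, 1822 and 878 in the EM libraries. All 3 EM libraries were far above the controls, a log2 fold change of 4.12 ± 0.45 (SE). The adjusted p-value was 1.95e-15 in DESeq2 and 0.0636 in edgeR.

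None of the other 12 tested genes of the list was called, and their log2 fold changes ran from -0.28 for hsd17b12a to 0.49 for the luteinizing hormone receptor gene lhcgr, which had 1 to 8 reads per library. The electron donor gene fdx1 had 344 ± 96.6 in EM-juveniles and 334 ± 160 in control juveniles (SD, n = 3), and its log2 fold change was 0.04 ± 0.48 (SE). The gene hsd11b2, whose enzyme makes 11-ketotestosterone and inactivates cortisol, had 309 ± 25.9 and 339 ± 153 (SD, n = 3), and its log2 fold change was -0.14 ± 0.42 (SE). The 95% intervals were -0.90 to 0.98 for fdx1 and -0.96 to 0.68 for hsd11b2, so changes within these bounds are not excluded. The ketosteroid-forming dehydrogenase gene hsd3b2 had 0 to 5 reads per library. Both groups were at or under 3 reads in every library for cyp19a1a, the gonadal aromatase, and for nr5a1b, a nuclear receptor of steroid-making cells. The reads of cyp19a1a were 0, 0 and 2 in the controls and 0, 0 and 2 in the EM libraries, so the target of the drug in the gonad was not measurable at this depth.

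A second list of 12 steroid genes was drawn up after their values had been seen. DESeq2 called 0 of the 10 it tested, against 1.08% of all tested genes. The median log2 fold change was 0.41 against 0.001 for all genes tested. All 3 EM libraries lay above all 3 controls in 3 of the 12, tspo, hsd20b2 and hsd3b1. Of all tested genes 5.7% held this pattern, or 9.52% as CPM. Because of how the list was chosen, these figures only describe it and are no evidence of a shift in steroid genes. The mitochondrial membrane protein gene tspo had 284 ± 57.8 in EM-juveniles and 193 ± 12.4 in control juveniles (SD, n = 3), with a DESeq2 adjusted p-value of 0.801. The dehydrogenase genes hsd20b2 and hsd3b1 had adjusted p-values of 0.968 and 0.85. Reads of hsd3b1 numbered 2, 1 and 4 in the controls and 6, 7 and 9 in the EM libraries. The cortisol pathway gene cyp21a2 overlapped between the groups, with 9.13 ± 2.40 for the controls and 12.4 ± 3.08 for the EM-juveniles (SD, n = 3). The interrenal receptor gene mc2r and its accessory gene mrap had at most 3 reads in any library.

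Control replicate 2, the highest library for cyp11c1, was also the highest for the ferredoxin gene fdx1b, the electron donor of the mitochondrial steroid enzymes in zebrafish, with 17.3 against 5.63 and 3.90 in control replicates 1 and 3. It was the highest for hsd17b3, the testosterone-forming dehydrogenase, with 69.4 against 14.5 and 13.6. The EM libraries lay between 2.22 and 4.10 for fdx1b and between 7.83 and 17.8 for hsd17b3. The high values of fdx1b and hsd17b3 move with cyp11c1 in a library that was the highest in 32.7% of all tested genes. In the same list, fdxr (7.43), nr0b1 (7.43), ar (12.4), hsd20b2 (29.7) and cyp17a2 (0) had their lowest value in that library. It was the single lowest library in 40.7% of all tested genes. The part of that library's composition in these values was not tested.

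**Figure D3:**
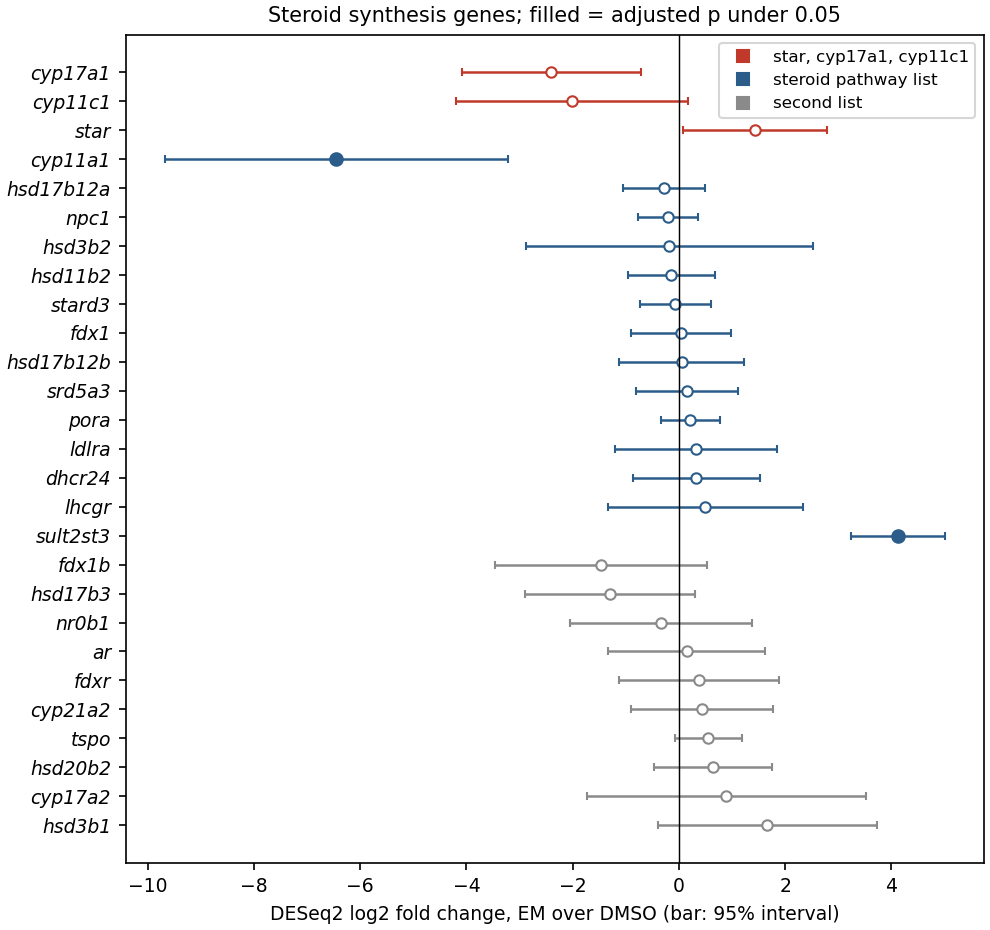
DESeq2 log2 fold changes of EM over DMSO (horizontal axis) for star, cyp17a1 and cyp11c1, the tested genes of the steroid pathway list and those of the second list. Bars are 95% intervals and filled points have an adjusted p-value under 0.05, which are cyp11a1 and sult2st3; the point of cyp11a1 is a fitted value for a gene with 0 reads in all EM libraries and is no measure of its size.

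Oocyte genes were mostly lower in EM-juveniles, while few other gonad markers passed the test. For the 6 oocyte genes (zar1, gdf9, bmp15, figla, zp3b and zpcx) the summed level was 173 to 1140 in the controls and 6.66 to 14.1 in the EM libraries. DESeq2 called 4 of the 6 lower, against 0.663% of all tested genes, and every EM library lay below every control in 5, against 5.6%. As CPM this held for 4 of the 6, since bmp15 overlapped, with 0.316 in control replicate 2 and up to 0.493 in the EM libraries. The egg coat gene zp3b had a log2 fold change of -5.52 ± 0.72 (SE), and zar1, a maternal RNA-binding factor, one of -6.08 ± 0.93. Their adjusted p-values were 7.08e-11 and 7.65e-08 in DESeq2, and 0.0791 and 0.129 in edgeR. Reads of zpcx were 0, 0 and 2 in the EM libraries and 388, 13 and 155 in the controls. Those of figla were 1, 1 and 0 against 60, 1 and 26, and both genes were called lower. The DESeq2 adjusted p-value of figla was 0.0316, and the edgeR filter removed it with all 6 libraries. It was 0.509 and 0.0769 without control replicates 1 and 3, 0.128, 0.162 and 0.21 without EM replicates 1, 2 and 3, and 0.089 with the replicate block. Without control replicate 2 it was 0.00114 in DESeq2. The other 2 oocyte genes were not called: bmp15 had 1, 2 and 2 reads in the EM libraries and 12, 1 and 8 in the controls. The 4 called genes were also on the study's own list of changed genes from these libraries. All 6 oocyte genes were taken from the study's tables of genes called changed in its comparisons, so the shares above are no test.

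The 3 germ cell genes (ddx4, piwil1 and dazl) summed to 86.7 to 404 in the controls and 54.8 to 112 in the EM libraries. DESeq2 called 1 of them lower, against 0.663% of all tested genes, and this was dazl. Its log2 fold change was -2.92 ± 0.66 (SE), with an adjusted p-value of 0.00178 in DESeq2 and 0.154 in edgeR. In DESeq2 it was 0.175 without control replicate 1, 0.057 and 0.0666 without EM replicates 2 and 3, and 0.109 with the replicate block. It was 0.00282 and 0.0322 in DESeq2 without control replicates 2 and 3, and 0.0106 without EM replicate 1. The part of the oocytes and other germ cells in the lower values of cyp17a1 and cyp11a1 was not tested.

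For the 6 somatic gonad genes (amh, gsdf, insl3, inha, wt1a and wt1b) the summed level was 14.9 to 90.2 in the controls and 86.2 to 163 in the EM libraries. DESeq2 called 0 of the 5 it tested, against 1.08% of all tested genes, and edgeR also called 0. The Sertoli cell hormone gene amh had 6.43, 0 and 13.0 in the controls and 58.0, 41.1 and 27.98 in the EM libraries. The groups did not overlap for amh. Its adjusted p-value was 0.0828 in DESeq2 and 0.916 in edgeR. With 1 library left out it was 0.421, 0.0279 and 0.0406 in DESeq2 without control replicates 1, 2 and 3, and 0.472, 0.774 and 0.356 without EM replicates 1, 2 and 3. With the replicate block it was 0.241. The kidney and gonad factor wt1a also did not overlap, with 0 to 20.8 in the controls and 21.3 to 25.8 in the EM libraries (DESeq2 adjusted p-value 0.939). The pattern of amh and wt1a, every EM library above every control, was held by 5.7% of all tested genes, or 9.52% as CPM. The gonadal growth factor gsdf overlapped, with 27.1 ± 18.8 and 43.5 ± 19.1 (SD, n = 3) in control and EM-juveniles. The Leydig cell hormone gene insl3 had 0 to 3 reads per library, so the cells that make androgens in the testis could not be followed by this marker. Of the 2 genes that respond to estrogen in liver, esr1 was lower in every EM library, at 4.44 to 9.37 against 9.91 to 107, with a DESeq2 adjusted p-value of 0.368. Its log2 fold change was -2.58, and -0.58 without control replicate 1, the library at 107. As CPM the groups overlapped for esr1, with 1.26 in control replicate 2 and 2.05 in EM replicate 1. Among all tested genes, 5.6% had every EM library below every control, or 3.13% as CPM. The yolk gene vtg3 was at 814 in control replicate 1 and between 0 and 7.43 in the others, and DESeq2 gave it no p-value.

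The genes most like each of the 3 in pattern were sought among 4109 genes with a symbol in the tables of the study and a mean of at least 10. Those tables list genes that the study called changed in its comparisons and gave a symbol to 4388 of the 32520 genes. Nearer genes outside them were not sought. Likeness was the root mean square difference of the centred log2 values over the 6 libraries. The nearest to star was si:ch211-287a12.9, at 0.136 log2 units. Its values were 12.1, 9.91 and 23.4 in the controls and 15.2, 56.6 and 71.6 in the EM libraries. The next were fmoda and slc35a5, at 0.449 and 0.458. The nearest to cyp17a1 were tdrd1, chia.4 and tph1a, at 0.413, 0.414 and 0.449. The germ cell gene tdrd1 had 126, 29.7 and 75.3 in the controls and 19.3, 19.97 and 10.1 in the EM libraries. The values of chia.4 were 213, 69.4 and 140 in the controls and 19.3, 24.4 and 33.6 in the EM libraries. Those of tph1a were 33.0, 22.3 and 21.4 in the controls and 10.0, 6.7 and 6.7 in the EM libraries. The nearest to cyp11c1 were kctd12b, dscamb and clcn3, at 0.226, 0.339 and 0.346, and all 3 were highest in control replicate 2. With CPM in place of normalised counts, 4 of these 9 genes were again among the 3 nearest. They were si:ch211-287a12.9, slc35a5, tph1a and kctd12b, so tdrd1 and chia.4 were no longer among those nearest to cyp17a1. The pseudocount of 1 weighs more on CPM of rare genes, and its part in this switch was not tested apart from the scaling.

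**Figure D4:**
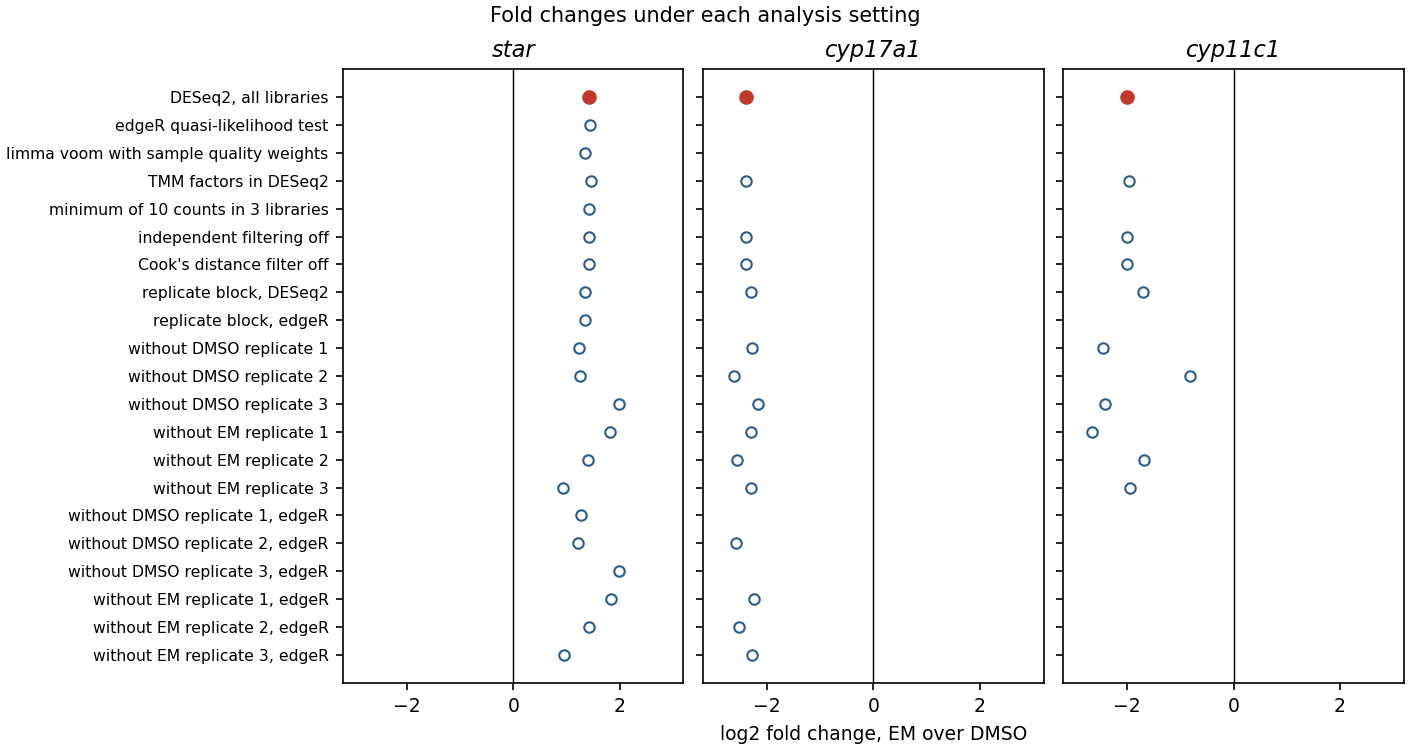
Log2 fold changes of EM over DMSO (horizontal axes) for star, cyp17a1 and cyp11c1 under each test, filter and left-out library (rows). The filled point is DESeq2 on all 6 libraries, open points are alternatives and a missing point means that the gene was removed by a filter; every point of star is above 0 and every point of cyp17a1 and cyp11c1 below 0, with cyp11c1 nearest to 0, at -0.82, without DMSO replicate 2.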

How the data were processed

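Per the labels and the methods of the study, the authors made stranded mRNA libraries, mapped reads to GRCz11 with HISAT2 2.0.5, removed duplicates with SAMtools 1.5 and counted reads over exons with HTSeq 0.9.1. The deposited values are raw read counts per Ensembl gene. What duplicate removal did to these low counts was not tested. Groups and replicate numbers came from the sample titles, which the table's column names repeat, and every direction rests on them. Identifiers were paired with symbols from the tables of the study and a name table, which matched 29201 of 32520 genes. The members and lists were chosen with earlier results of these data known. Apart from the members, the second list and the tissue markers, all list genes were taken from the study's tables of genes it called changed.

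DESeq2 1.42.0 in R 4.3.3 (two-sided Wald test, size factors by median of ratios, Benjamini-Hochberg adjusted p-value under 0.05) was fitted to the whole table, as in the study, with edgeR 4.0.16 beside it. Alternatives were limma 3.58.1 voom, TMM factors, a minimum of 10 counts in 3 libraries, DESeq2 filters off, a replicate block, leaving out each library, pseudocounts of 0.5 and 5 in place of 1, and CPM. Before logs were taken, 1 was added to CPM as well. Whether groups overlap as CPM was examined for the list genes after the data had been seen. The floor was 3 reads per library. No 2 libraries of a group were within sampling noise.

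Named were the 3 genes, 10 steroid and gonad genes given whatever their values, list genes that were called or did not overlap, and the 3 genes nearest to each member. Genes of the second list and the tissue markers were chosen after their values were seen. p-values measure the spread between tanks of fish.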

Additional observations from a re-analysis of the deposited data

How the results depend on the processing

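The log2 fold changes of star, cyp17a1 and cyp11c1 kept their direction, and stayed uncalled, under all alternatives that could test them. With 1 library left out, they ran from 0.938 to 1.984, from -2.619 to -2.167 and from -2.657 to -0.824. Adjusted p-values over the alternatives ran from 0.211, 0.153 and 0.406 up to 1. The genes called higher and lower numbered 101 and 159 in DESeq2. They numbered 0 and 0 in edgeR, 16 and 77 in voom, and 34 and 56 with a minimum of 10 counts, where fewer genes were tested. With 1 library left out they ran from 19 to 406 and from 85 to 193 in DESeq2, and from 0 to 181 and from 0 to 123 in edgeR (4 higher without control replicate 2 and 9 lower without EM replicate 1). The 406 and 181 came without EM replicate 1, the 19 without EM replicate 3 and the 85 without control replicate 1.

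With the replicate block, DESeq2 called 64 higher and 110 lower and edgeR called 1 and 47. The block gave log2 fold changes of 1.34 for star, -2.30 for cyp17a1 and -1.71 for cyp11c1. Same-numbered libraries are different tanks, and their deviations correlated at 0.014, 0.13 and -0.154. Pairs of unlike number were not set beside these values, so whether same-numbered libraries share more than a number was not tested.

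Of the steroid pathway list, 0 genes were called higher with edgeR and, with 1 library left out, from 0 to 1. The number called lower was 0 with edgeR, voom, the minimum of 10 counts and either replicate block, and from 0 to 1 with 1 library left out. The gene called lower in DESeq2, cyp11a1, was removed by the filter in edgeR, voom, the minimum of 10 counts and the edgeR block. These settings therefore could not call it. The DESeq2 block did test cyp11a1 (adjusted p-value 0.14). The direction of fdx1 was reversed in voom (-0.151). With 1 library left out its log2 fold change ran from -0.223 to 0.498 in DESeq2 and up to 0.555 in edgeR, where it was -0.058 and -0.217 without control replicates 2 and 3 and -0.158 without EM replicate 3. It ran from -0.855 to 0.324 for hsd3b2. For hsd11b2 it ran from -0.324 to 0.294 in DESeq2 and from -0.334 to 0.344 in edgeR. The cause was not tested. At 1 to 90 reads per library, depth limits all 3 androgen synthesis genes.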
